A study of Homo sapiens with 6 samples.

Results

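The genes described here make, break down and answer to cyclic nucleotides. They comprised the phosphodiesterases, the adenylyl cyclases, the catalytic and regulatory subunits of protein kinase A, the transcription factors CREB1, CREB3, CREB5, CREM and ATF1, the CREB coactivators CRTC1, CRTC2 and CRTC3, and the cyclic AMP-activated exchange factors RAPGEF3 and RAPGEF4. They were chosen by gene symbol among features annotated as protein coding, by a rule that uses no measured value but was set with earlier results of these data known. The rule found 46 members among 35424 features of the deposited table, made up of 21 phosphodiesterases, 9 adenylyl cyclases, 2 catalytic and 4 regulatory subunits, 5 transcription factors, 3 coactivators and 2 exchange factors.

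RNA-seq of polyadenylated RNA was available for 6 libraries of THP-1, a cell line established from a human acute monocytic leukaemia, which is 1 line and so 1 genetic background. The 3 untreated libraries (A1 in the labels) were compared with 3 libraries of THP-1 treated with PMA (B1). PMA is a phorbol ester and a direct activator of protein kinase C, and it brings THP-1 cells towards a macrophage-like state. No other genotype, allele or agent is named for either group, and no source used here gives the dose or length of the PMA treatment. The study describes its sequencing replicates as independent experiments, and no source used here says that a replicate of one group is tied to a replicate of the other.

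Cyclic AMP is made from ATP by adenylyl cyclases under the control of G protein-coupled receptors, through stimulatory and inhibitory G proteins, and is hydrolysed by phosphodiesterases. It binds the regulatory subunits of protein kinase A, which frees the catalytic subunits, and these phosphorylate, among others, the transcription factor CREB at genes that carry a cyclic AMP response element. In monocytes and macrophages cyclic AMP is known as a brake on inflammatory cytokine output, and phosphodiesterases of the PDE4 family are a drug target for that reason.

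Estimated counts summed to 61547700 to 88227830 per untreated library and to 64361886 to 65698834 per PMA library. The summed level of 11 monocyte and macrophage markers in counts scaled to library size (CPM) was 635 to 704 without PMA and 1863 to 2102 CPM with it. These markers did not move alike. On average ELANE fell from 392 to 68.4 CPM and MPO from 4.01 to 0.362 CPM. LYZ (2.00 and 2.37 CPM) and ITGAM (12.7 and 12.7 CPM) changed little. The rest rose, most in CPM for CSF1R (20.2 to 674), SIGLEC1 (2.81 to 509) and ITGAX (34.7 to 344). The erythroid markers summed to at most 0.157 CPM in any library. Of the 6 markers of T and B lymphocytes, 2 were in the table, with a summed level of 2.25 to 2.83 CPM without PMA and 2.95 to 3.55 CPM with it. The fibroblast markers in the table summed to 4.13 to 5.42 CPM and 7.40 to 10.2 CPM, the epithelial ones to 1.33 to 11.96 and 1.35 to 8.09 CPM, and the megakaryocyte ones to at most 1.14 CPM. The part of these levels in the results was not tested. PMA replicates 2 and 3 lay closer to each other (median absolute log2 difference over genes 0.0846) than any other pair of libraries of one group (0.125 to 0.220), and replicate 1 deviated from replicates 2 and 3 with the GC content of genes, as described for the members.

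The cyclic AMP response element, TGACGTCA, was searched on both strands in RefSeq promoter windows (GRCh38.p14) that run from 250 bases before to 50 bases after a transcript start. The windows covered 39 of the 46 members (109 windows). The element was found in 6 of them, 5.50%, against 1.85% of all 35116 windows, but overlapping windows of CREM and of PRKAR1A hold the same site, so that there are 4 distinct sites, in 4 genes. These are shown because they carry the response element of the pathway itself. The window of PDE4A at chr19:10416523-10416822, plus strand, whose start site is also the start of the gene in the deposited table, held the element 3 bases before the start and 7 matches to its TGACG core, a pair of which make up the full element. It is printed 5′ to 3′ with every match on either strand in capitals.
PDE4A promoter: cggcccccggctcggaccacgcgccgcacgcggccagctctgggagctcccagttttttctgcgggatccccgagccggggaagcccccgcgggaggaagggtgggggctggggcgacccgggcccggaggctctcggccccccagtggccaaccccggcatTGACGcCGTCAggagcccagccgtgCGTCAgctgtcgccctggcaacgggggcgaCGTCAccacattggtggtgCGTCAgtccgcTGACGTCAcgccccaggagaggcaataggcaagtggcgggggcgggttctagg
The elements of all 4 genes are set out in stretches of 30 bases, with the element in capitals, from chr19:10416759-10416788 (PDE4A), chr10:35195841-35195870 (CREM), chr6:135851535-135851564 (PDE7B) and chr17:68512370-68512399 (PRKAR1A), all on the plus strand.
PDE4A: cgtcagtccgcTGACGTCAcgccccaggag
CREM: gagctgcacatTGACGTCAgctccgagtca
PDE7B: actaaacccttTGACGTCActcttgaaatg
PRKAR1A: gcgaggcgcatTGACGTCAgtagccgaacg
Of these 4 genes PDE4A was called higher after PMA, and CREM, PDE7B and PRKAR1A were not called in either direction. The element of CREM lies at an internal start, and the CREM windows near the gene start (chr10:35126791) hold none. The calls are for whole genes and do not separate transcripts from single starts. The TGACG core alone was in 22.9% of the member windows and 24.6% of all windows. The phorbol ester (AP-1) element TGANTCA was in 9.17% of the member windows and 7.71% of all, and a C/EBP element TTGCNNAA in 9.17% and 10.5%. These are matches of letters in a fixed window and say nothing about binding.

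Of the 46 members, 26 reached the minimum for testing, an FPKM (fragments scaled to gene length and library size) of at least 1 in at least 3 libraries. After PMA 11 of the 26 were called higher (42.3%, against 32.7% of all 12947 genes tested) and 4 were called lower (15.4%, against 32.8%), at an adjusted p under 0.05 by edgeR's quasi-likelihood test with Benjamini-Hochberg adjustment over all genes. At least 2-fold changes, all of them upward, were found for 6 members (23.1%, against 22.9% of all genes in either direction). The CPM values of both groups did not overlap for 16 members (61.5%, against 70.3% of all genes). The median log2 fold change was 0.15 over the tested members and -0.01 over all genes. ADCY4, among the 6 with at least a 2-fold change, reached the minimum through the PMA libraries alone. Among the other 25 members 10 were called higher and 4 lower, with a median of 0.13. The shares over all genes were not restricted in this way. No test of the set as a whole was made. The counts changed when libraries were left out: without PMA replicate 3 there were 2 members called lower, PRKAR2B and PDE8A. Over all genes 3279 were called lower in that fit, against 4253 with all libraries.

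**Figure D1:**
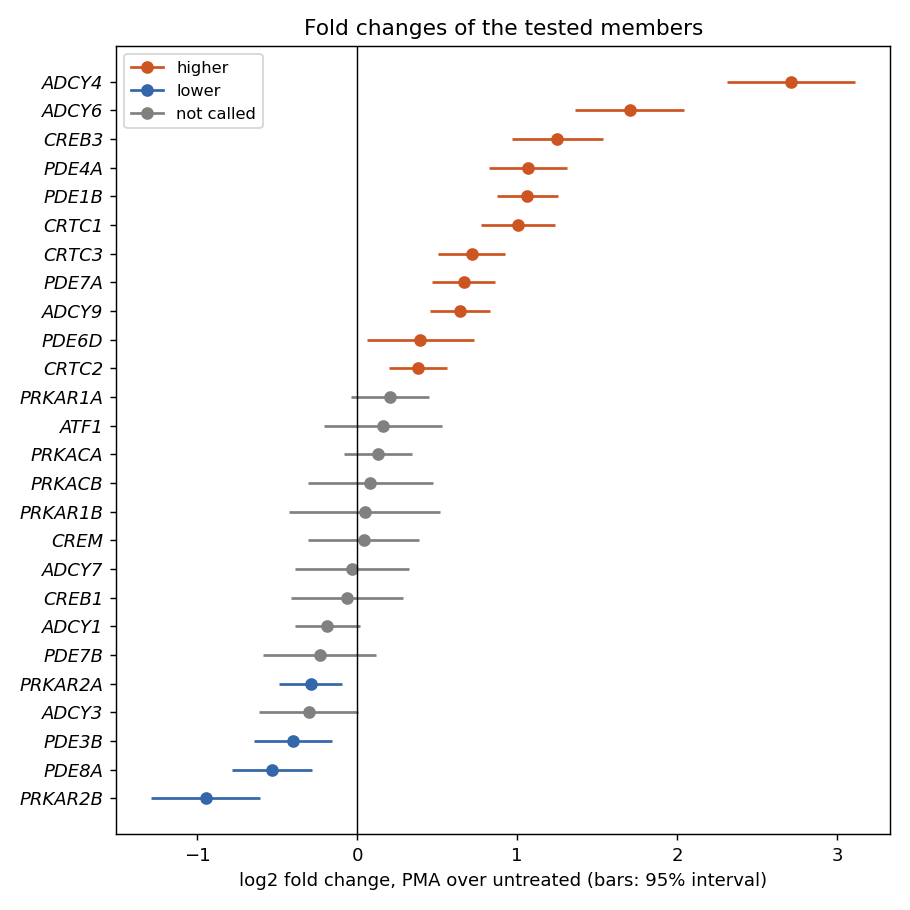
Log2 fold change (PMA over untreated, x axis) of the 26 tested members, with bars for the 95% interval of edgeR's fit and colours for the call. The rises run up to 2.71 for ADCY4, and the falls down to -0.95 for PRKAR2B.

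Adenylyl cyclases, which make cyclic AMP, included the 2 tested members with the greatest rises. ADCY4 and ADCY6, which were low in untreated cells, rose strongly, ADCY9 rose moderately, and the more abundant ADCY3 and ADCY7 and the less abundant ADCY1 were not called. ADCY4 (ENSG00000129467; chromosome 14, 24318349 to 24335071, hg38) is a cyclase known to be stimulated by G protein beta-gamma subunits. Its FPKM was 0.231, 0.287 and 0.193 in untreated replicates 1, 2 and 3 and 1.60, 1.48 and 1.57 in PMA replicates 1, 2 and 3. Every PMA library was thus far above every untreated one, and the log2 fold change was 2.71 ± 0.17 (SE; adjusted p = 6.33e-06 by edgeR; 6.55-fold). The gene entered the test through the 3 PMA libraries alone, and 7.09% of its exonic bases are shared with another annotated gene.

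ADCY6 (ENSG00000174233; chromosome 12, 48766194 to 48789089) belongs to the cyclases inhibited by calcium. Its FPKM was 1.08, 1.01 and 0.809 without PMA and 3.51, 2.70 and 3.02 with PMA. The groups did not overlap, and the log2 fold change was 1.70 ± 0.15 (adjusted p = 3.09e-05; 3.25-fold). ADCY9, a widely expressed cyclase that responds weakly to forskolin, rose from 64.2 ± 0.727 to 100.3 ± 8.16 CPM (mean ± SD, n = 3), a log2 fold change of 0.64 ± 0.08.

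ADCY3 had the highest level among the cyclases, with an FPKM of 17.2, 14.3 and 11.998 in untreated and 12.8, 10.8 and 10.7 in PMA libraries. The lowest untreated library lay below the highest PMA library, and the log2 fold change of -0.30 ± 0.13 missed the threshold (adjusted p = 0.0749). It was called lower without untreated replicate 3 (-0.43, adjusted p = 0.0217), with no minimum (-0.45, adjusted p = 0.0451), with DESeq2 (-0.43, adjusted p = 0.0102) and with the replicate number as a block (-0.30, adjusted p = 0.00512). ADCY7, the cyclase typical of blood cells, averaged 9.65 ± 1.80 FPKM without PMA and 9.20 ± 1.51 with it, and its log2 fold change was -0.03 (95% interval -0.39 to 0.32). The exons of these 2 genes overlap other genes, over 24.4% of the exonic bases of ADCY3 (mostly the opposite-strand CENPO) and 41.8% of those of ADCY7 (the opposite-strand BRD7). Whether the counting used strand is not given, so reads of these partners cannot be told apart from theirs. ADCY1, which calmodulin stimulates, averaged 57.3 ± 3.82 and 50.4 ± 3.42 CPM, with a log2 fold change of -0.18 (adjusted p = 0.0999). With no minimum it was called lower at -0.33 (adjusted p = 0.0249), and with DESeq2 at -0.31 (adjusted p = 0.0160). These fits, which also called ADCY3 lower, put the median gene 0.15 and 0.13 lower on the log2 scale than the main fit.

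The summed FPKM of the cyclases was 35.5 ± 4.87 without PMA and 38.3 ± 2.41 with it, and the groups overlapped. The make-up of the sum differed. The share of ADCY3 was 40.6% without PMA and 29.8% with PMA, that of ADCY7 27.1% and 23.9%, and that of ADCY9 16.7% and 23.5%. ADCY6 went from 2.72% to 8.004% of the sum and ADCY4 from 0.670% to 4.04%. Shares are a description of the same values and were not tested for single genes.

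Among the cyclases under the minimum, ADCY8, which calmodulin stimulates and which is known mainly from brain, had a count of 0 in all 3 libraries without PMA and of 46, 35 and 62 with PMA. Against a floor of 12 counts over the untreated group (0.0524 CPM) this is at least 14.3-fold higher in PMA libraries, at a level of 0.158 FPKM on average. ADCY5 had counts of 170 to 311 without PMA and 222 to 324 with PMA. ADCY10, the soluble cyclase stimulated by bicarbonate, had counts of 0 to 17 and 25 to 33.

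**Figure D2:**
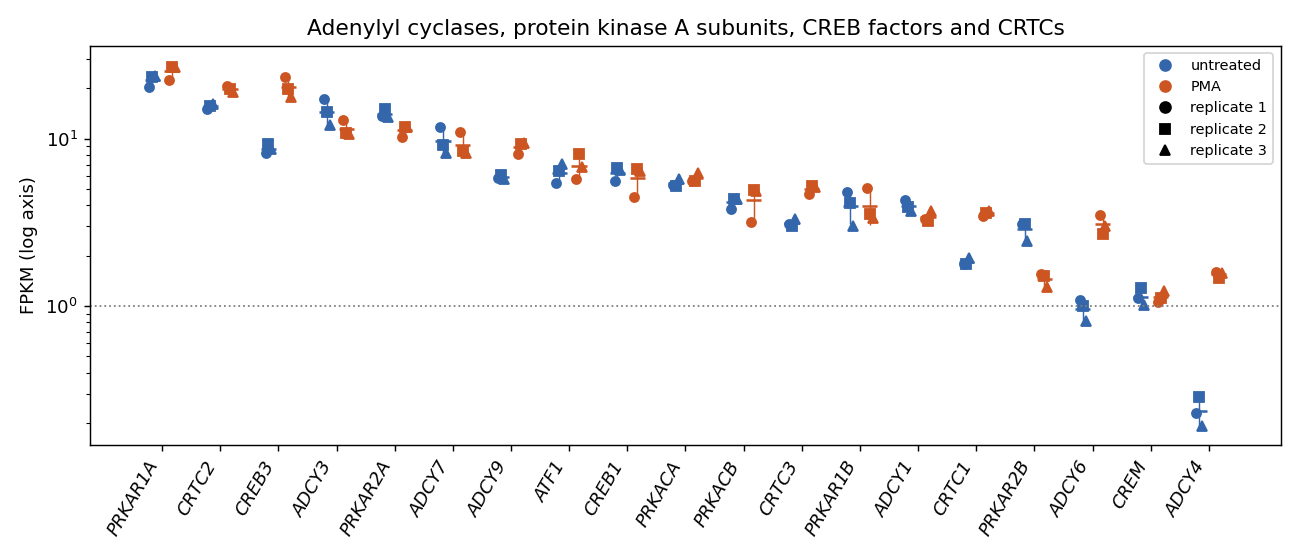
FPKM (log axis) of the tested cyclases, protein kinase A subunits, CREB factors and CRTCs in each library, with a bar at the group mean and a line for ± 1 SD (n = 3). Symbols give the replicate number, and the dotted line is the testing minimum of 1 FPKM. The untreated values of ADCY4 lie between 0.193 and 0.287, under that line.

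Phosphodiesterases had a higher sum in every PMA library than in any untreated one, and single genes were called in both directions. Of 7 tested members, 4 were called higher (PDE4A, PDE1B, PDE7A and PDE6D) and 2 lower (PDE8A and PDE3B). The summed FPKM of all 21 was 35.9, 40.2 and 40.8 without PMA and 47.9, 53.0 and 53.6 with PMA, so that the groups did not overlap. This includes PDE6D, whose protein is a carrier of prenylated proteins and not a hydrolase.

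PDE7A, a cyclic AMP-specific enzyme, was the most abundant. Its FPKM was 11.1, 12.3 and 12.04 without PMA and 16.6, 19.1 and 19.1 with PMA. Each PMA library was above each untreated one, with a log2 fold change of 0.67 ± 0.09 (adjusted p = 0.000253), and the gene held 30.3% of the summed FPKM without PMA and 35.4% with it. Its relative PDE7B, which carries a response element in its promoter, averaged 12.4 ± 0.172 CPM and 10.6 ± 1.97 CPM and was not called (log2 fold change -0.23, adjusted p = 0.210, 95% interval -0.59 to 0.12).

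PDE4A (ENSG00000065989; chromosome 19, 10416773 to 10469630) encodes a cyclic AMP-specific enzyme sensitive to rolipram. Its FPKM was 2.79, 2.98 and 3.33 in untreated and 5.84, 6.44 and 6.37 in PMA libraries. The groups were well separated, with a log2 fold change of 1.07 ± 0.11 (adjusted p = 6.17e-05; 2.09-fold). PDE1B (ENSG00000123360; chromosome 12, 54549601 to 54579239), a calmodulin-dependent enzyme that hydrolyses cyclic AMP and cyclic GMP, had an FPKM of 2.86, 3.03 and 2.93 without PMA and 6.10, 5.84 and 6.08 with PMA. Its replicates lay close together within each group, and the log2 fold change was 1.06 ± 0.08 (adjusted p = 1.61e-05; 2.09-fold). The exons of PDE1B share 6.01% of their bases with the opposite-strand gene PPP1R1A, and those of PDE4A share none.

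The other PDE4 genes were lower in level. PDE4B, the form best known from activated monocytes, missed the minimum, since 2 libraries reached it, with an FPKM of 0.438, 0.420 and 0.641 without PMA and 0.980, 1.26 and 1.28 with PMA. The groups did not overlap. In a fit with no minimum, in which 28.4% of 35042 genes were called and whose scale put the median gene 0.15 lower on the log2 scale, its log2 fold change was 1.11 ± 0.21 (adjusted p = 0.0049). PDE4D averaged 0.571 ± 0.0755 and 0.495 ± 0.0781 FPKM and was not called there (adjusted p = 0.209). PDE4C had counts of 0 to 9 and 4 to 18, and 73.9% of its exonic bases are shared with other genes.

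The share of the 4 PDE4 genes in the summed phosphodiesterase FPKM was 10.4%, 9.90% and 11.3% in untreated and 15.2%, 15.5% and 15.4% in PMA libraries. Each PMA library thus had a higher share than each untreated one. The difference of 4.81 percentage points had p = 0.1 by the two-sided exact permutation test over libraries, the smallest p that 3 against 3 can give. PDE1B went from 7.56% to 11.7% of the sum.

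PDE8A and PDE3B were the members called lower. PDE8A, a cyclic AMP-specific enzyme of high affinity, averaged 30.5 ± 3.31 CPM without PMA and 21.1 ± 0.823 CPM with it (log2 fold change -0.53 ± 0.11, adjusted p = 0.00289). PDE3B, which cyclic GMP inhibits and which is known from insulin action in fat cells, averaged 73.9 ± 2.90 and 56.0 ± 7.27 CPM (log2 fold change -0.40 ± 0.11, adjusted p = 0.0104). Its adjusted p was 0.0520 without PMA replicate 3, and its log2 fold change was -0.23 (adjusted p = 0.0286) without PMA replicate 1. Their shares of the summed FPKM were 9.45% and 15.9% without PMA and 4.84% and 8.82% with it. PDE6D rose by 0.40 ± 0.15 on the log2 scale (adjusted p = 0.0413), and this call was lost without any one of untreated replicates 1 and 2 and PMA replicates 2 and 3, with adjusted p of 0.130, 0.121, 0.0733 and 0.0577.

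**Figure D3:**
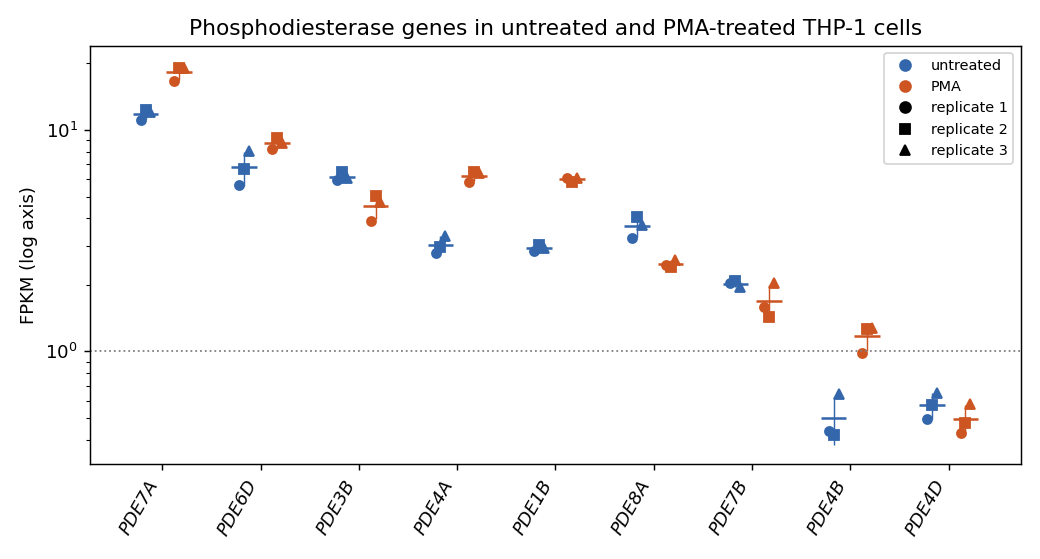
FPKM (log axis) of the 7 tested phosphodiesterases and of PDE4B and PDE4D in each library, with the group mean and ± 1 SD (n = 3). The PMA libraries lie above the untreated ones for PDE7A, PDE6D, PDE4A, PDE1B and PDE4B and under them for PDE3B and PDE8A, and PDE7B overlaps.

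Several low phosphodiesterases are known from cyclic GMP signalling. PDE2A, which cyclic GMP stimulates and which hydrolyses both nucleotides, had counts of 0, 0 and 16 without PMA and 134, 87 and 111 with PMA, and was called higher in the fit with no minimum (adjusted p = 0.0352). It averaged 0.0104 ± 0.0180 and 0.223 ± 0.0447 FPKM. PDE5A, specific for cyclic GMP, had counts of 162 to 354 and 255 to 444 and was not called there (adjusted p = 0.0915). The photoreceptor enzymes PDE6A, PDE6B and PDE6C had counts of at most 74 in any library. PDE1C and PDE8B had counts of 140 to 581, and PDE3A, PDE9A, PDE10A and PDE11A of at most 86. In all, 20 members were under the minimum, none of them at 0 in all 6 libraries, and 13 with a mean count under 100. Without the minimum, 4 of the 20 were called higher (ADCY8, PDE2A, PDE4B and RAPGEF3), 1 lower (RAPGEF4) and 15 in neither direction. In that fit 28.4% of all 35042 genes were called in one direction or the other. Low counts fell on multiples of 4 more often than other whole numbers (37.3% to 39.2% of values from 3 to 22, where 25% of whole numbers are multiples), so the reads behind such counts may be fewer than the counts.

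The protein kinase A holoenzyme pairs catalytic with regulatory subunits, which come as type I (PRKAR1A, PRKAR1B) and type II (PRKAR2A, PRKAR2B). Both type II genes fell after PMA, while neither the type I genes nor the catalytic subunits were called. PRKAR2B had an FPKM of 3.09, 3.10 and 2.46 without PMA and 1.56, 1.51 and 1.30 with PMA. Every PMA library lay under every untreated one, and the log2 fold change was -0.95 ± 0.15 (adjusted p = 0.000692). PRKAR2A averaged 96.5 ± 4.78 and 78.9 ± 6.06 CPM, a log2 fold change of -0.29 ± 0.08 (adjusted p = 0.0159). Its call was lost without untreated replicate 2 (adjusted p = 0.0714) and without PMA replicate 1, 2 or 3 (adjusted p = 0.0962, 0.0706 and 0.0821), and without PMA replicate 1 the log2 fold change was -0.16.

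PRKAR1A, the most abundant subunit, had an FPKM of 20.2, 23.4 and 23.7 in untreated and 22.3, 26.9 and 26.6 in PMA libraries. Replicate 1 was the lowest of its group in each, and the groups overlapped. The log2 fold change was 0.20 ± 0.10 (adjusted p = 0.120, 95% interval -0.04 to 0.45). It passed the threshold without PMA replicate 1 (0.36, adjusted p = 0.00913) and with the replicate block (0.20, adjusted p = 0.0151). It also passed among genes with a mean FPKM of at least 5 (0.33, adjusted p = 0.0261). On the log2 scale the median gene lay 0.065 higher without PMA replicate 1 and 0.12 higher with that minimum. PRKAR1B averaged 3.96 ± 0.883 and 3.98 ± 0.915 FPKM (log2 fold change 0.05, 95% interval -0.42 to 0.52).

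The type II share of regulatory subunit FPKM was 40.0%, 39.7% and 37.4% in untreated and 30.1%, 30.4% and 30.1% in PMA libraries. The groups did not overlap, and the difference of -8.85 percentage points had p = 0.1, again the smallest that the exact permutation test allows. The summed regulatory FPKM was 43.3 ± 2.11 without PMA and 41.9 ± 2.49 with it, and the shares of PRKAR1A in it were 51.8% and 60.2%.

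The catalytic subunit PRKACA, the more abundant one, had an FPKM of 5.29, 5.20 and 5.72 without PMA and 5.55, 5.61 and 6.19 with PMA. The groups overlapped, with a log2 fold change of 0.13 (adjusted p = 0.238, 95% interval -0.08 to 0.34). Among genes with a mean FPKM of at least 5 it was called higher at 0.25 (adjusted p = 0.0398). That fit put the median gene 0.12 higher on the log2 scale. PRKACB had an FPKM of 3.80, 4.36 and 4.36 without PMA and 3.18, 4.94 and 4.84 with PMA. PMA replicate 1 was the lowest of all 6 libraries and the other PMA libraries the highest, so that the log2 fold change was 0.08 (adjusted p = 0.686, 95% interval -0.31 to 0.48) over all libraries and 0.33 (adjusted p = 0.0181) without PMA replicate 1. The share of PRKACB in the catalytic FPKM was 43.6% ± 1.93 without PMA and 42.4% ± 5.34 with it, a difference of -1.17 percentage points (p = 0.9, exact permutation test) that turned to 1.80 without PMA replicate 1. The ratio of catalytic to regulatory FPKM was 0.218, 0.209 and 0.236 in untreated and 0.224, 0.241 and 0.257 in PMA libraries (p = 0.2, exact permutation test), and the groups overlapped.

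**Figure D4:**
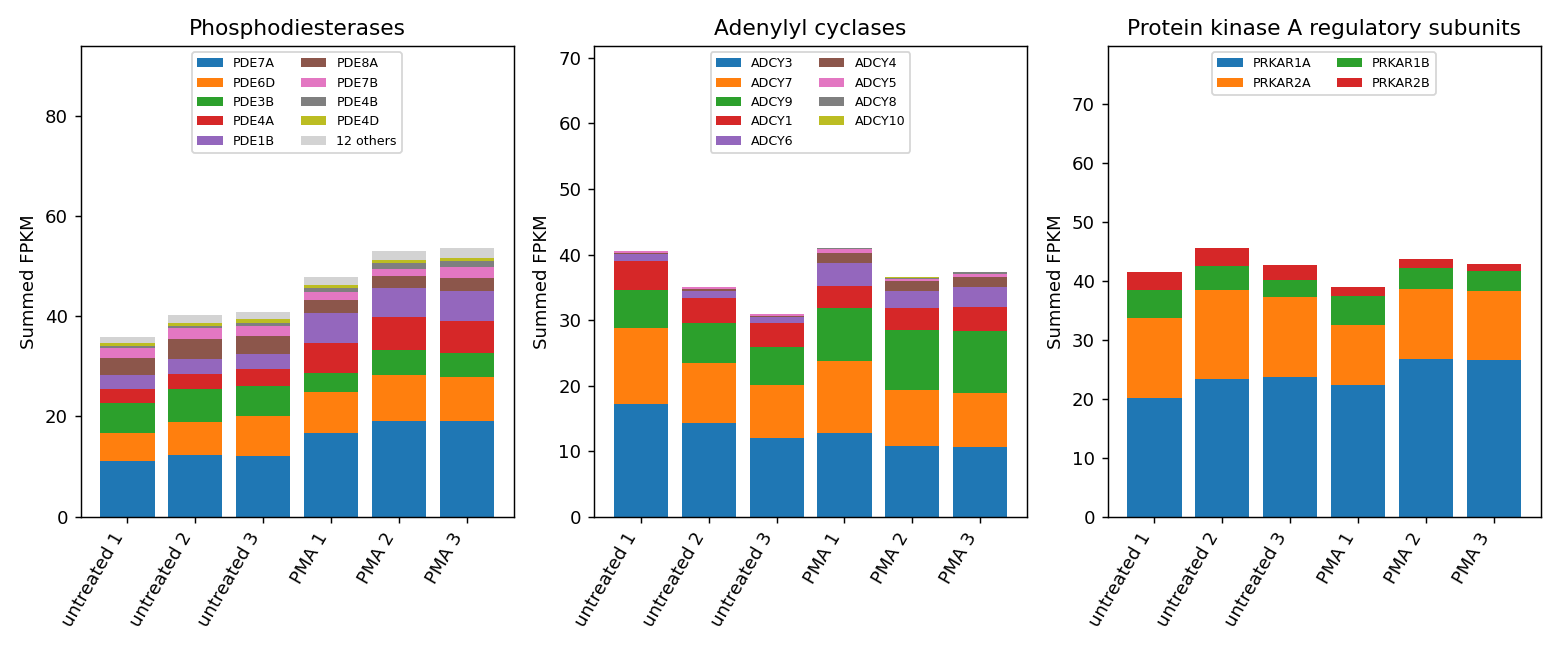
Summed FPKM (y axis from 0) of the phosphodiesterases, adenylyl cyclases and protein kinase A regulatory subunits in each of the 6 libraries, with colours for the genes. The phosphodiesterase sum lies between 35.9 and 40.8 without PMA and between 47.9 and 53.6 with it, and the PRKAR2A and PRKAR2B segments are smaller in PMA libraries.

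Replicate 1 deviated with base composition, more in the PMA than in the untreated group for PRKACB and CREB1. For the 9 tested members whose transcripts had a GC content under 45%, PMA replicate 1 was the lowest PMA library in 7 and its median log2 deviation from the mean of replicates 2 and 3 was -0.26. For the 11 members over 55% it was the highest in 7 and the lowest in 4, with a median of 0.09. Over all tested genes the medians were -0.18 and 0.20. Untreated replicate 1 was the lowest of its group in 6 of the same 9 members under 45% and the highest in 4 of the 11 over 55%, with deviations of -0.26 for CREB1, -0.22 for PRKACB, 0.41 for ADCY7 and 0.42 for PRKAR1B. Among members the deviations of PMA replicate 1 reached -0.61 for PRKACB (GC 36.1%), -0.53 for CREB1 (39.2%) and 0.55 for PRKAR1B (62.0%). PRKAR2B, with the lowest GC content of the tested members (35.3%), went the other way, by 0.16 in PMA and 0.14 in untreated replicate 1. With an offset for GC content in each library, a fit chosen after these values were seen, PRKACB stayed uncalled at -0.03, PRKAR1A passed at 0.17 (adjusted p = 0.0454) and ADCY3 at -0.26 (adjusted p = 0.0345). What set these libraries apart was not tested.

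**Figure D5:**
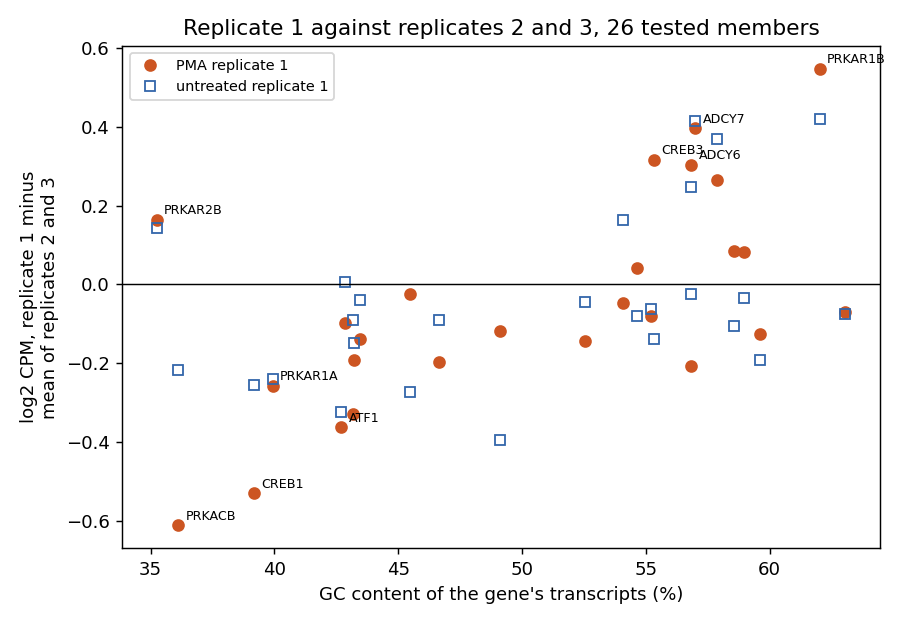
Log2 CPM of replicate 1 minus the mean of replicates 2 and 3 (y axis) against the GC content of the gene's transcripts (x axis, percent) for the 26 tested members, in PMA (circles) and untreated (squares) libraries. PRKACB at -0.61 and PRKAR1B at 0.55 are the extremes among PMA libraries.

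The exchange factors RAPGEF3 and RAPGEF4, which activate the small GTPase RAP1 on binding cyclic AMP, were both low. RAPGEF3 had an FPKM of 0.110, 0.0561 and 0.0497 in untreated and 0.169, 0.201 and 0.169 in PMA libraries, and RAPGEF4 of 0.189, 0.200 and 0.185 and of 0.0483, 0.0922 and 0.0293. PMA libraries were thus higher for the former and lower for the latter, with no overlap. Neither reached the minimum. With no minimum the log2 fold changes were 1.19 ± 0.35 (adjusted p = 0.0346) and -1.85 ± 0.44 (adjusted p = 0.0144). RAPGEF3 shares 15.9% of its exonic bases with other genes, mostly the opposite-strand gene RPAP3-DT.

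Of the transcription factors, CREB3 rose and the CREB1, CREM and ATF1 genes, which encode the factors that protein kinase A phosphorylates, were not called. CREB3 (ENSG00000107175; chromosome 9, 35732598 to 35736999) encodes a factor anchored in the membrane of the endoplasmic reticulum and released by cleavage, related to CREB by its DNA-binding domain. Its FPKM was 8.23, 9.25 and 8.69 without PMA and 23.3, 19.9 and 17.7 with PMA. The lowest PMA value was well above the highest untreated one, with a log2 fold change of 1.25 ± 0.12 (adjusted p = 5.93e-05; 2.38-fold), and 8.20% of the exonic bases are shared with the opposite-strand gene GBA2.

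CREB1 averaged 78.0 ± 7.75 CPM without PMA and 74.6 ± 14.8 with it (log2 fold change -0.06, 95% interval -0.41 to 0.29). ATF1 averaged 18.3 ± 2.66 and 20.5 ± 3.47 CPM (0.16, interval -0.21 to 0.53). CREM, which also makes a repressor from an internal promoter, averaged 6.78 ± 0.682 and 6.97 ± 0.518 CPM (0.04, interval -0.31 to 0.39). The groups overlapped for each of them. CREB5 was low, with counts of 12 to 88 and 26 to 34.

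All 3 CRTC genes, whose proteins enter the nucleus when dephosphorylated and bind CREB, were called higher. CRTC1 (ENSG00000105662; chromosome 19, 18683678 to 18782333) had an FPKM of 1.78, 1.77 and 1.93 in untreated and 3.45, 3.58 and 3.69 in PMA libraries. The groups were far apart, with a log2 fold change of 1.00 ± 0.10 (adjusted p = 6.25e-05). CRTC2, the most abundant, had an FPKM of 14.9, 15.6 and 16.2 without PMA and 20.5, 19.9 and 18.9 with PMA, again without overlap, and rose by 0.38 ± 0.08 (adjusted p = 0.00332). In the fit with no minimum, where the median gene lay 0.15 lower on the log2 scale, CRTC2 was not called (adjusted p = 0.0569). CRTC3 rose from 34.9 ± 2.45 to 57.2 ± 3.23 CPM, by 0.72 ± 0.09 on the log2 scale (adjusted p = 0.000218).

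Other genes of the pathway were counted in lists that hold no member except where said. For comparison, 32.7% of all 12947 genes tested were called higher and 32.8% lower. The fit with no minimum called 4855 of 35042 genes higher and 5099 lower. Most tested receptors that act on adenylyl cyclase rose. The 10 tested, of 19 present in the data, had 7 called higher and 1 lower, with a median log2 fold change of 1.71. Through the PMA libraries alone 3 of them had entered, VIPR1 and MC1R included, and among the other 7 there were 4 called higher and 1 lower, with a median of 0.94. The fit with no minimum called 9 of the 19 higher and 1 lower. The prostaglandin E2 receptor PTGER4 went from 19.5 ± 2.51 to 156 ± 6.58 CPM (log2 fold change 3.00) and the VIP receptor VIPR1 from 3.62 ± 0.670 to 25.4 ± 4.14 CPM (2.81). ADRB1, the beta-1 adrenoceptor, was the one called lower (-0.64).

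The G protein alpha subunits that link receptors to cyclases had 5 tested genes of 7, with 1 called higher and 2 lower and a median of -0.01. The fit with no minimum called 1 of the 7 higher and 3 lower. GNAI1, an inhibitory subunit that entered the test through the PMA libraries alone, rose by 1.20, while GNAI3 fell by 0.27 and GNAZ fell by 0.36 on the log2 scale. The stimulatory subunit GNAS averaged 349 ± 29.4 and 362 ± 28.2 CPM and was not called (adjusted p = 0.638).

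A-kinase anchoring proteins, which hold protein kinase A at membranes and organelles, had 11 tested genes of 15, with 7 higher and 2 lower and a median of 0.25. With no minimum, 4 of the 15 were called higher and 2 lower. AKAP13, which is also an exchange factor for RHOA, rose by 1.08 and AKAP9, of the Golgi and centrosome, by 0.75, while AKAP1, of the outer mitochondrial membrane, fell by 0.89 on the log2 scale. Of the inhibitors and the related kinase PRKX, 3 of 4 were tested and PKIG was called lower (-0.46). None of the 10 genes of cyclic GMP synthesis and kinases in the table reached the minimum.

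Among other effectors, exporters and regulators 10 of 18 were tested, with 6 higher, 1 lower and a median of 0.47. Of the 18, the fit with no minimum called 6 higher and 3 lower. The exporter ABCC4, which carries cyclic AMP out of cells, went from 82.6 ± 9.33 to 36.8 ± 4.15 CPM (log2 fold change -1.17). CAP1, an actin-binding protein first found with adenylyl cyclase in yeast, rose by 1.03 and the Popeye protein gene BVES, which binds cyclic AMP, by 0.99.

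Of the salt-inducible kinases, which keep CRTC proteins in the cytoplasm, and the acetyltransferases that CREB recruits, all 4 tested genes of 5 were called higher, with a median of 0.68. Among all 5, the fit with no minimum called 3 higher and 1 lower. CREBBP rose by 1.13, EP300 by 0.80 and SIK2 by 0.55. SIK1 was under the minimum, at 3.34 ± 0.855 CPM without PMA and 1.64 ± 0.169 with it.

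Genes known as targets of cyclic AMP and CREB had 11 tested of 19, of which 10 were called higher and 0 lower by edgeR, with a median of 2.57. Of these 11, NR4A2, FOSB, ATF3 and AREG entered through the PMA libraries alone, where they are high, and among the other 7 there were 6 called higher. Over the 11 tested genes 0 were lower at an unadjusted p under 0.05, by DESeq2 or by limma, while over all 19 the fit with no minimum called 12 higher and 2 lower. This list holds the members CREM, PDE4B and PDE4D, and many of its genes are known as early genes of phorbol ester and growth factor signalling as well. ATF3 rose by 5.58, EGR1 by 4.04 and FOSB by 4.01, while CREM was the tested gene not called. NR4A1, an orphan nuclear receptor and a classical target, was under the minimum at 3.70 ± 0.351 CPM without PMA and 2.19 ± 0.481 with it, and its relative NR4A2, which entered through the PMA libraries, rose by 1.47. All values are of RNA per library, in which more RNA per cell and more cells with the RNA cannot be told apart.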

How the data were processed

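RNA-seq of 3 untreated and 3 PMA-treated THP-1 libraries was analysed. For 35424 features the authors deposited an estimated count, a whole number that is not scaled to depth, and an FPKM value, scaled to gene length and depth. The submitters' notes name hg38 and DESeq2. No source used here gives the aligner, the counter, the annotation or the use of strand. No deposited column of values was left out (0 unused). Keeping the row with the highest mean count for each name left 35042 genes. PDE1A carried no protein-coding annotation and was left out, and ADCY2 was not analysed here.

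Counts were tested with edgeR 4.0.16 (R 4.3.3; glmQLFit and glmQLFTest, TMM factors of 0.984 to 1.021, treatment as the only term) over the 12947 genes that reached 1 FPKM in 3 or more libraries. Calls were made at an adjusted p under 0.05 after Benjamini-Hochberg adjustment. The SE of a log2 fold change was its size over the square root of F, and intervals are at 95%. DESeq2 1.42.0 and limma 3.58.1 on log2(FPKM + 1) and log2(FPKM + 0.1) were alternatives. Shares of FPKM were compared with a two-sided exact permutation test over libraries, coded directly in Python 3.11.15. The scripts were tested on simulated data. A gene at 0 in a group was set at a floor of 12 counts over the group. Without molecular identifiers, a floor covers counting error alone.

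Exon overlap and GC content came from GENCODE v44, and promoter windows from RefSeq. The planned comparison of protein sequences was not made. The members, lists and tests were chosen with earlier results of these data known. Values of every library were given for called members with at least 2-fold change and for the most abundant member of each family. For at most 3 called genes of a pathway list, those that changed most, group means or a log2 fold change were given. ADCY8, PDE2A, PDE4B, PRKACB, PRKAR2B, RAPGEF4, GNAS, SIK1, NR4A1 and NR4A2 were added after their values were seen, as was the receptor ADRB1. One gene that this rule names is not reported here.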

Additional observations from a re-analysis of the deposited data

How the results depend on the processing

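Of the 15 called members, 11 kept their call under all of the up to 16 alternatives in which they were tested. Among these, ADCY4 was not tested in any fit that left out a PMA library, since it entered through the 3 PMA libraries alone. CRTC2, PDE3B, PDE6D and PRKAR2A lost their call under some alternatives. ADCY1, ADCY3, PRKACA, PRKACB and PRKAR1A, which were not called, gained a call under some. The number called lower was 7 with no minimum and 7 with DESeq2, also run with no minimum. There the scale put the median gene 0.15 and 0.13 lower on the log2 scale, and 5099 and 5476 of all genes were called lower. With a mean FPKM of at least 5, 13 members were tested, of which edgeR called 7 higher and 0 lower (1 lower at an unadjusted p under 0.05, and 3 of the same 13 by DESeq2 and 2 by limma), and the median gene lay 0.12 higher. PDE3B (adjusted p = 0.0519) and PRKAR2A (adjusted p = 0.113) were then among those not called. Over all genes edgeR called 2433 higher and 2457 lower with that minimum. Leaving out 1 replicate at a time gave 9 to 12 higher and 2 to 5 lower. Over all genes these fits called 3375 to 3957 higher and 3277 to 4048 lower, against 4232 and 4253 in the main fit. The replicate block gave 12 higher and 5 lower among members, and 4657 and 4758 over all genes. No label says that libraries with the same replicate number are paired. Same-numbered deviations correlated at 0.377, 0.0384 and 0.0257 for replicates 1, 2 and 3, and differently numbered ones at -0.250 to 0.227. The value for replicate 1 was the highest of all, and what those libraries share was not tested. The PDE4 share differed by 3.83 percentage points in CPM and by 5.71 with PDE6D left out, the latter chosen after seeing the data, and the type II share by -6.68 in CPM. The PRKACB share ranged from -3.39 to 1.80 when single replicates were left out, turning in sign without PMA replicate 1.

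The sign of the log2 fold change turned under some alternatives for 6 members that were not called, and none was called after the turn. ADCY7 was at 0.090 with a mean FPKM of at least 5, 0.035 with an FPKM of at least 1 in all 6 libraries, 0.038 with PMA replicates 2 and 3 summed and 0.011 with the GC offset. CREB1 was at 0.061 and 0.0051 under the same minimums. With no minimum CREM was at -0.11, PRKACA at -0.016, PRKACB at -0.065 and PRKAR1B at -0.10. With DESeq2 CREM was at -0.088, PRKACB at -0.042 and PRKAR1B at -0.081. CREM was at -0.0012 and -0.00062 with limma at pseudocounts of 1 and 0.1. PRKACB was at -0.0057 with the replicates summed and -0.026 with the GC offset. Leaving out single replicates took ADCY7 from -0.14 to 0.11, CREB1 from -0.15 to 0.16, CREM from -0.038 to 0.16 and PRKAR1B from -0.12 to 0.22. Relative to the main fit, the median gene lay 0.15 lower with no minimum and 0.13 lower with DESeq2. It lay 0.12 higher with a mean FPKM of at least 5 and 0.068 higher with an FPKM of at least 1 in all 6 libraries. Without 1 of the PMA replicates it lay 0.065 to 0.071 higher. The causes of the turns were not tested.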
